A study of Mus musculus with 10 samples.

Results

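Axon guidance genes encode the extracellular cues that steer growing axons and migrating neurons, and the surface receptors that read them. The genes described here are the semaphorins of classes 3 to 7, plexins, neuropilins, Slits, Robos, ephrins, Eph receptors, netrins, Dcc and the Unc5 receptors. They were picked out by gene symbol, and the choice of these families was made with earlier results of these data known. The symbols matched 69 of the 23235 genes in both deposited expression tables. Of these, 52 had a mean control level of at least 1 FPKM (fragments per kilobase of transcript, scaled to the mapped fragments of the library) in a table: 50 in one table, 46 in the other and 44 in both. The remaining 17 stayed under that level in both tables.

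The libraries came from GFP-positive cells sorted at embryonic day 15 from mouse cortex that had received plasmids by in utero electroporation at day 13. In a new set of 6 libraries, 3 controls (replicates 10 to 12) stood against 3 knockdowns with a first short hairpin RNA (shRNA) to Chd8, a chromatin remodeller. In a first set of 4 libraries, 2 controls (replicates 1 and 2) stood against 2 knockdowns with a second Chd8 shRNA. Controls received a control shRNA, and each replicate pooled the cortices of 3 to 5 embryos. Electroporation reaches the radial glia facing the ventricle and their descendants, so each library is aimed at that lineage at 1 time point. Markers of other cell types, given below, were present too. The mouse strain is not given in the sources used here. The shRNA, the set and the table always change together, so their parts in a difference between sets cannot be told apart.

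Class 3 semaphorins are secreted and bind neuropilins, which signal through class A plexins, while most other semaphorins are anchored in the membrane and bind plexins directly. Secreted Slits bind Robo receptors, ephrins bind Eph receptor tyrosine kinases at contacts between cells, and netrins act through Dcc and Unc5 receptors. In the developing cortex these systems are known for guiding radial migration, the sorting of neurons and the growth of callosal and corticofugal axons, and several also act on progenitors.

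Chd8 itself measured 3.59, 3.30 and 4.02 FPKM in the new-set controls and 2.09, 1.84 and 1.92 FPKM in the knockdowns, with no overlap. The log2 difference, knockdown minus control, was -0.65 (SE 0.117, limma adjusted p = 0.0213). Leaving out 1 library took that call above the threshold in 5 of the 6 cases (adjusted p up to 0.0829), all but control 11. An exact two-sided permutation test gave p = 0.1, the smallest possible with 3 against 3. First-set Chd8 measured 12.4 and 13.8 FPKM in controls and 8.55 and 9.23 FPKM in knockdowns, a log2 difference of -0.51 (SE 0.233, limma adjusted p = 0.152, exact permutation p = 0.333).

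Library quality differed by group in the first set. Its 2 knockdown libraries had an estimated relative depth of 0.529 each, against 1 (the reference) and 1.23 in the controls. The estimate is the commonest ratio, over genes under 0.5 FPKM in both, between the reference library and the other. Olfactory receptor genes, which cortex does not use, averaged 0.0036 and 0.00817 FPKM in the first-set controls and 0.672 and 0.557 FPKM in the knockdowns. In the new set the relative depth lay between 0.959 and 1.39 and no library averaged over 0.00162 FPKM on those genes. First-set gains of low genes below are to be read beside those values.

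Radial glia and cortical neuron markers were abundant. All 17 radial glia markers listed and 20 of 21 cortical neuron markers were at or above 1 FPKM in the controls of both sets; the remaining neuron marker was not matched by symbol. None of the 12 endothelial and pericyte markers reached 1 FPKM in the new-set controls. Their sum was 3.36 to 3.59 FPKM there. In the first-set controls 2 of the 12 reached 1 FPKM, and the sum was 12.2 to 19.0 FPKM.

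The guidance genes spanned a wide range of control levels. In the new set the 50 expressed genes ran from 1.52 to 124.8 FPKM with a median of 11.2 FPKM, and 27 were at 10 FPKM or more. The first-set range over 46 genes was 1.01 to 96.6 FPKM with a median of 8.14 FPKM, and 21 were at 10 FPKM or more. Efnb2, Epha3, Epha4 and Nrp1 stood near the top in both sets, while Efnb1, rank 1 in the new set, had rank 14 in the first (16.2 FPKM). Efnb1 (124.8 FPKM), Epha3 (100.4), Efnb2 (71.7), Nrp1 (60.2) and Epha4 (42.4) were the highest in the new set, while Nrp1 (96.6), Efnb2 (85.6), Epha3 (66.5), Epha4 (61.0) and Plxna2 (56.6) headed the first. Within that new-set order the ranges of Epha3 and Efnb2, and of Efnb2 and Nrp1, overlapped between control libraries. Nrp1 and Epha4 did not overlap, nor did Efnb1 and Epha3. Netrin 1, the best known ligand of Dcc, was near 0.1 FPKM in the new-set controls (mean 0.105) and 0.438 FPKM in the first. Its receptor Dcc was present at 14.5 and 11.9 FPKM. Slit3 was at 0.112 and 0.0119 FPKM, Robo3 at 0.19 and 0.0506 FPKM, and Unc5c at 0.105 and 0.113 FPKM.

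**Figure D1:**
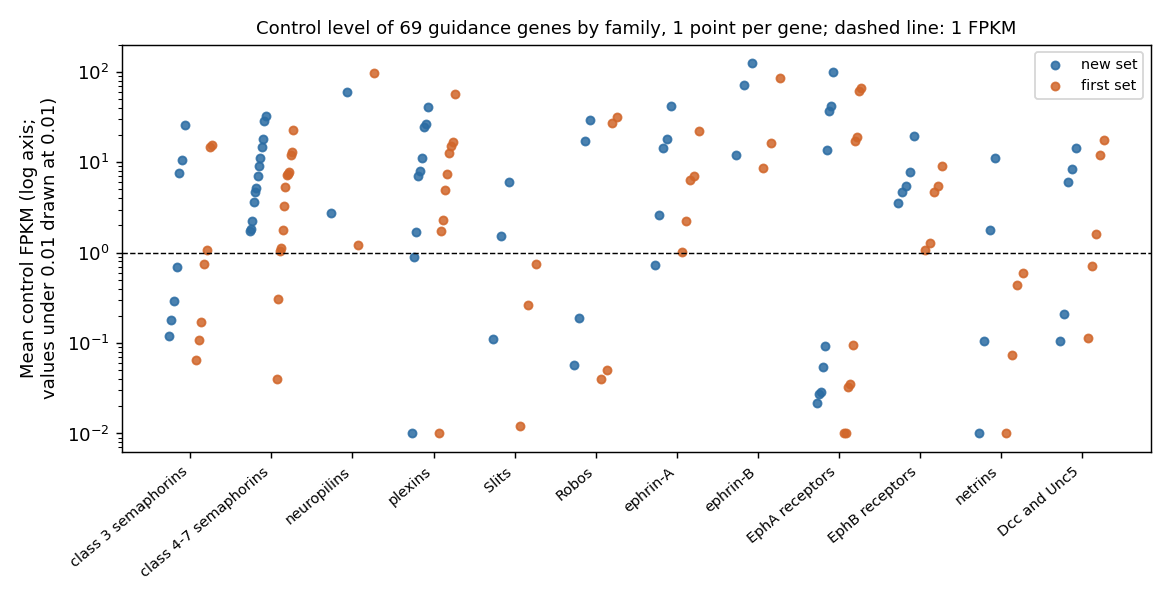
Mean control FPKM (log axis) of each of the 69 guidance genes, by family, in the new set (blue) and the first set (orange); the dashed line marks 1 FPKM. Efnb1, Epha3, Nrp1 and Efnb2 hold the highest points, up to 124.8 FPKM for Efnb1 in the new set, and netrins have no point above 11.2 FPKM.

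Genes nearest to the inclusion limit were Plxnd1 (0.896 FPKM) and Efna5 (0.723) just outside and Slit2 (1.52) and Plxnc1 (1.70) just inside in the new set. The first set had Slit2 (0.748) and Sema3e (0.747) just outside and Efna3 (1.01) and Sema7a (1.05) just inside. Testing used the mean over all libraries of a table. Plxnd1 in the new set and Sema3e in the first therefore entered the tests through their knockdown levels, which gave 51 and 47 genes tested.

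Several genes differed widely in level between the tables, which were made separately, so this was not tested. Control levels lay 4-fold or more apart on the log2(FPKM + 1) scale for 9 of 52 guidance genes (17.3%) and for 913 of 11884 genes over all (7.68%). Sema6c, a membrane semaphorin, averaged 28.5 FPKM in new-set controls and 0.0396 FPKM in first-set controls. Ntn4 averaged 11.2 and 0.0732 FPKM. The order was opposite for Efna5, an ephrin-A, at 0.723 FPKM in the new set and 22.3 FPKM in the first. Whether both tables used the same gene models is not stated, so these levels may not cover the same transcripts.

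Sequence upstream of the transcription start is given for 4 genes on which the results turn, chosen after their values were seen: Sema3c and Unc5a, higher in the new-set knockdowns, Nrp1, lower in both sets, and Nrp2, its paralogue with a different pattern. Each run is the 250 bases before the RefSeq start on the plus strand of GRCm38.p6, at chr5:17574566-17574815, chr13:54949161-54949410, chr8:128358823-128359072 and chr1:62703067-62703316 in that order. Capitals mark matches, on either strand, to any of 6 motifs searched: the core bound by TCF and LEF factors (CTTTGA), an E-box bound by proneural factors (CAGATG), a second symmetric E-box known from the same family (CAGCTG), the E-box known from MYC (CACGTG), a core sequence bound by E2F factors (GCGGGA) and a longer site of the same E2F factors (TTTCGCG).
Sema3c: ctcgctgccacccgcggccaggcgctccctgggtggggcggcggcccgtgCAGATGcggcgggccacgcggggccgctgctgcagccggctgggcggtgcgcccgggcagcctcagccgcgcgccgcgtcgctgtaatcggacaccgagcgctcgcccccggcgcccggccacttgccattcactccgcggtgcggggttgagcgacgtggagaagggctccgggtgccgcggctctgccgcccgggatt
Unc5a: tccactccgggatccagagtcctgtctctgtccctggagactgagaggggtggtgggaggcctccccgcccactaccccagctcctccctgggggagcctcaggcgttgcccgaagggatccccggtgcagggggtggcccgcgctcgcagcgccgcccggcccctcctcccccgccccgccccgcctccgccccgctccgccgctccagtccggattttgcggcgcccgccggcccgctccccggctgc
Nrp1: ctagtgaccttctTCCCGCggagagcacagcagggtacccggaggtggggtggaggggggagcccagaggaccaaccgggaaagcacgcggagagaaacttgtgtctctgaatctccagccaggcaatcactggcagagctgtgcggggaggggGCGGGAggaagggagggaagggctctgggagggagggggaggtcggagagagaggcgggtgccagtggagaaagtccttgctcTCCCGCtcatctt
Nrp2: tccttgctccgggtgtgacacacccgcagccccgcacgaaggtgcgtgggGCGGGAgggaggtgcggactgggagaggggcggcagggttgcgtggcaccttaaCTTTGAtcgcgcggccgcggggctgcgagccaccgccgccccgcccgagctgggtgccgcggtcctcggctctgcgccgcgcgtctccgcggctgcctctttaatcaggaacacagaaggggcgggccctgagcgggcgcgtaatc
Sema3c held 1 match (CAGATG), Unc5a none, Nrp1 3 (all GCGGGA or its reverse complement) and Nrp2 2 (GCGGGA and CTTTGA). Windows for 59 of the 69 guidance genes were in the RefSeq table, 75 windows in all. GCGGGA lay in 33.3% of these windows and in 16.9% of all 32851 windows. GC content had a median of 64.4% in the guidance windows and 52.4% in all. CTTTGA lay in 5.33% against 13.8%, CAGATG in 6.67% against 14.4%, CAGCTG in 16% against 13%, CACGTG in 5.33% against 6.02% and TTTCGCG in 0 of 75 against 0.703%. A match describes letters in these windows and does not show binding.

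In the new set 4 guidance genes rose and 0 fell among the 51 tested by limma, at an adjusted p under 0.05. That is 7.84% of them, against 8.99% of all genes tested (3.84% higher and 5.15% lower), a share near the background. At an unadjusted p under 0.05 in limma there were 10 above and 2 below control. No share over all genes stands beside such unadjusted counts, here or below. Of the 51 genes, 47.1% had a log2 difference above 0, against 53.0% of all genes. The median log2 difference was -0.01 over the guidance genes and 0.02 over all genes. The 4 genes that rose were the ligands Sema3c and Slit1 and the receptors Plxna4 and Unc5a, each of a different family.

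Cell-type markers moved with the knockdown in the new set, where 3.84% of all genes tested were called higher and 5.15% lower. The 20 matched cortical neuron markers summed to 2747 to 3279 FPKM in controls and 3876 to 4808 FPKM in knockdowns, and 9 of them rose and 0 fell (14 had an unadjusted p under 0.05 in limma). Of 17 radial glia markers 9 fell, with sums of 1590 to 1997 and 1322 to 1892 FPKM. The 12 intermediate progenitor markers summed to 1100 to 1272 FPKM in controls and 805 to 884 FPKM in knockdowns, and 4 fell and 0 rose (6 at an unadjusted p under 0.05 in limma). The 12 interneuron markers, 7 of them at 1 FPKM or more in controls, summed to 22.7 to 35.9 FPKM in controls and 13.8 to 17.5 FPKM in knockdowns. Cajal-Retzius markers, 3 of the 8 matched at 1 FPKM or more in controls, summed to 12.6 to 18.3 FPKM in controls and 7.32 to 10.5 FPKM in knockdowns. Choroid plexus and hem markers, 1 of 7 at that level, summed to 18.9 to 24.0 FPKM and 28.9 to 70.0 FPKM. Erythroid markers, 5 of 8 at that level, summed to 149 to 280 FPKM in controls and 23.6 to 115 FPKM in knockdowns. In sorted bulk RNA, a change in the number of cells of a type and a change of RNA per cell cannot be told apart, and the part of these markers in the guidance results was not tested.

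Sema3c, a secreted semaphorin that binds both neuropilins, measured 29.8, 21.5 and 26.0 FPKM in the new-set controls (replicates 10, 11 and 12) and 50.3, 45.1 and 53.1 FPKM in the knockdowns. All 3 knockdowns lay above all controls. Its mean went from 25.7 ± 4.16 to 49.5 ± 4.04 FPKM (SD, n = 3), a log2 difference of 0.93 (SE 0.125, limma adjusted p = 0.0113). It was the only one of the 4 whose call held under all 13 alternatives tried for the new set. First-set libraries had Sema3c at 16.1 and 15.1 FPKM in controls and 3.48 and 15.1 FPKM in knockdowns, so knockdown 1 alone was low. The first-set log2 difference was -0.97 (SE 0.537, limma adjusted p = 0.221), and the difference between sets was 1.89 (SE 0.539, limma adjusted p = 0.0211), lost without first-set control 1 or control 2 (adjusted p up to 0.0609).

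Plxna4, a plexin that carries class 3 semaphorin signals, measured 28.2, 20.9 and 24.2 FPKM in new-set controls and 32.8, 37.3 and 40.4 FPKM in knockdowns. The groups did not overlap, and the log2 difference was 0.58 (SE 0.126, limma adjusted p = 0.033). Its first-set levels were lower with knockdown, 19.3 and 14.4 FPKM against 7.22 and 10.6 FPKM, with a log2 difference of -0.85 (limma adjusted p = 0.0657). The sets differed by 1.43 (SE 0.272, limma adjusted p = 0.00348).

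Slit1, a secreted Robo ligand, stood at 6.95, 4.80 and 6.21 FPKM in the new-set controls and 10.7, 10.2 and 8.37 FPKM in the knockdowns, again without overlap. Its log2 difference was 0.63 (SE 0.149, limma adjusted p = 0.0408). First-set levels were too low to test, at 0.305 and 0.216 FPKM in controls and 1.08 and 1.68 FPKM in knockdowns, beside olfactory receptor means of 0.672 and 0.557 FPKM in those knockdowns. Unc5a, a netrin receptor, measured 6.78, 5.06 and 6.35 FPKM in new-set controls and 11.2, 8.81 and 9.65 FPKM in knockdowns, a log2 difference of 0.63 (SE 0.136, limma adjusted p = 0.0329). Its first-set values overlapped, 1.55 and 1.68 FPKM against 1.59 and 1.97 FPKM (log2 difference 0.08, limma adjusted p = 0.818).

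The calls of Plxna4, Slit1 and Unc5a did not hold with most single libraries left out. Each was lost without control 12 and without any 1 of the knockdowns, and those of Slit1 and Unc5a also without control 10, with adjusted p up to 0.119, 0.143 and 0.106 in limma. Over all genes those fits called 88 to 292, against 1015 with every library. Each was also lost without the filter on low values (limma adjusted p = 0.0605, 0.0786 and 0.0638). Over all alternatives the log2 differences stayed within 0.47 to 0.68, 0.50 to 0.73 and 0.52 to 0.70. Without control 11 the count was 6 (11.8%, against 16.7% of all genes), with Ephb4 and Nrp1 below control as well.

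**Figure D2:**
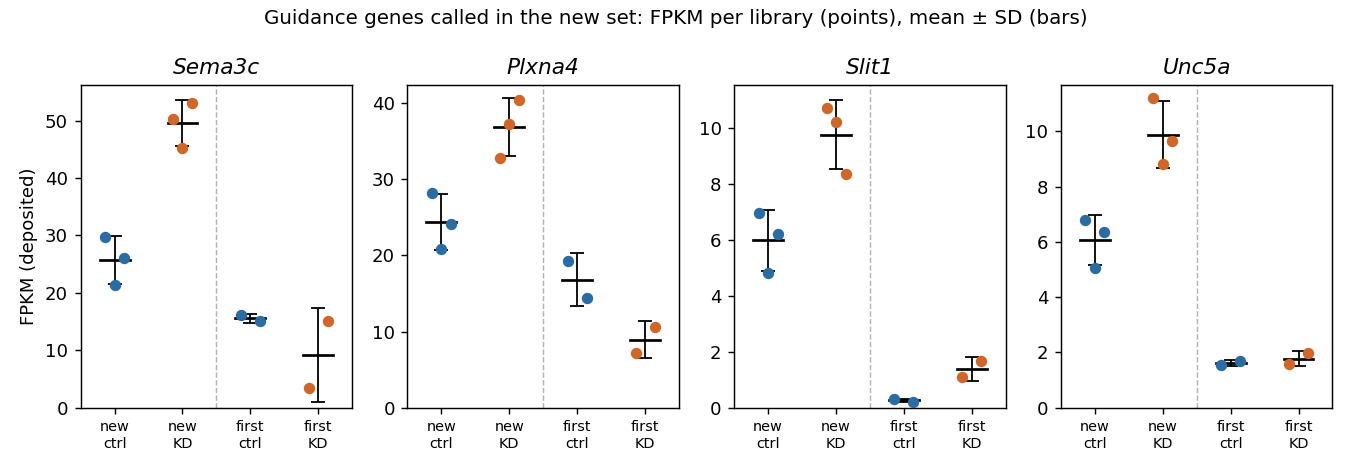
FPKM in each library (points; blue control, orange knockdown) with the mean and SD (bars) for the 4 guidance genes that rose in the new set, with the first set to the right of the dashed line in each panel. The 3 new-set knockdowns lie above the 3 controls in every panel, while in the first set Sema3c spans 3.48 to 15.1 FPKM between its 2 knockdowns.

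Replicate 11 stood apart for guidance genes. Control 11 was the lowest control for 43 of the 51 genes (84.3%, against 37.4% of all genes tested), and knockdown 11 was the lowest knockdown for 32 (62.7%, against 35.5%). Summed over the 50 expressed guidance genes, the controls held 1056, 818.2 and 1073 FPKM and the knockdowns 1045, 979.6 and 1116 FPKM. Guidance transcripts are long, with a median of 5038 bases for the longest coding transcript against 3208.5 bases over all matched genes. With genes split by transcript length into 4 bins of about equal size, control 11 differed from the other controls in the longest bin by a median of -0.24 in log2 over all genes and -0.47 over 28 guidance genes. In the shortest bin its median was 0.22 over all genes. Its part in the new-set results was not tested beyond leaving it out.

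The replicate numbers pair the new-set libraries by the rule used. With the replicate number as a block, 10 of 51 guidance genes were called in the new set, 19.6%, against 21.7% of all genes. The 4 genes above kept their calls. Added were Epha3, Sema6a and Sema6d, higher (limma adjusted p = 0.0341, 0.0221 and 0.0257), and Ephb4, Nrp1 and Sema5b, lower (limma adjusted p = 0.0222, 0.0404 and 0.0252). The control and knockdown values did not overlap for 14 of the 51 genes, 10 higher and 4 lower (27.5%, against 35.7% of all genes tested, 18.6% higher and 17.1% lower).

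In the first set 8 guidance genes changed, 1 higher and 7 lower of 47 tested, or 17.02%, against 23.8% of all genes (13.2% higher and 10.7% lower). Efnb3 rose, and Dcc, Efnb2, Epha4, Nrp1, Plxna2, Robo1 and Sema5a fell. The median log2 difference was -0.35 over the guidance genes and -0.15 over all genes. By role, 5 of 24 receptors and 2 of 23 ligands fell. The median was -0.43 over the receptors and 0.06 over the ligands, of which Sema3e passed the filter only through its knockdown level; the difference between the roles was not tested. Groups did not overlap for 30 of the 47 genes, 7 higher and 23 lower (63.8%, against 67.8% of all genes, 27.4% higher and 40.4% lower). Summed over the 46 expressed guidance genes, controls held 798.1 and 710 FPKM and knockdowns 411.1 and 526 FPKM.

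None of these 8 calls held when 1 first-set library was left out. Each such fit left 1 library in a group, and fewer genes were called over all as well. The losses therefore cannot be told apart from a lack of replicates. Without control 1, control 2, knockdown 1 or knockdown 2, the median log2 difference over the guidance genes was -0.41, -0.22, -0.14 and -0.56. Over all genes it was -0.11, -0.11, -0.15 and -0.17. With the mean olfactory receptor level subtracted from each library the count was again 8, of which 0 were higher: Efnb3 lost its call (limma adjusted p = 0.0564) and Epha3 gained one (0.0475). Over all genes, the share of called genes that were higher went from 55.2% to 40.8% with that subtraction, and the median log2 difference from -0.15 to -0.29.

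Transcript length moved with the first-set result. Over all genes the median log2 difference was -0.37 in the bin of longest transcripts and 0.09 in that of the shortest. For the 26 guidance genes in the longest bin it was -0.66, and for the 17 in the next longest bin 0.06. Length and the depth of these libraries were not tested as parts of the result. Cortical neuron markers summed to 5150 to 5625 FPKM in first-set controls and 3527 to 3872 FPKM in knockdowns, the opposite direction to the new set. Microglial markers, of which 2 of 11 reached 1 FPKM in controls, summed to 2.61 to 5.74 FPKM in controls and 14.2 to 23.9 FPKM in knockdowns. Other sums of low genes above controls were meninges (0.371 to 0.64 against 1.62 to 1.93 FPKM) and oligodendrocyte precursors (0.38 to 1.26 against 1.34 to 1.91 FPKM). Cajal-Retzius markers were at 1.86 to 5.84 against 5.86 to 6.60 FPKM. Olfactory receptor genes averaged 0.672 and 0.557 FPKM per gene in those knockdowns. Sums overlapped for radial glia (1983 to 2041 against 1148 to 2338 FPKM), where 3 of 17 markers fell (17.6%, against 10.7% of all genes). They also overlapped for intermediate progenitors (864 to 920 against 760 to 1159 FPKM), where 3 of 12 rose and 4 fell, beside 13.2% and 10.7% of all genes. The part of these markers in the result was not tested.

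**Figure D3:**
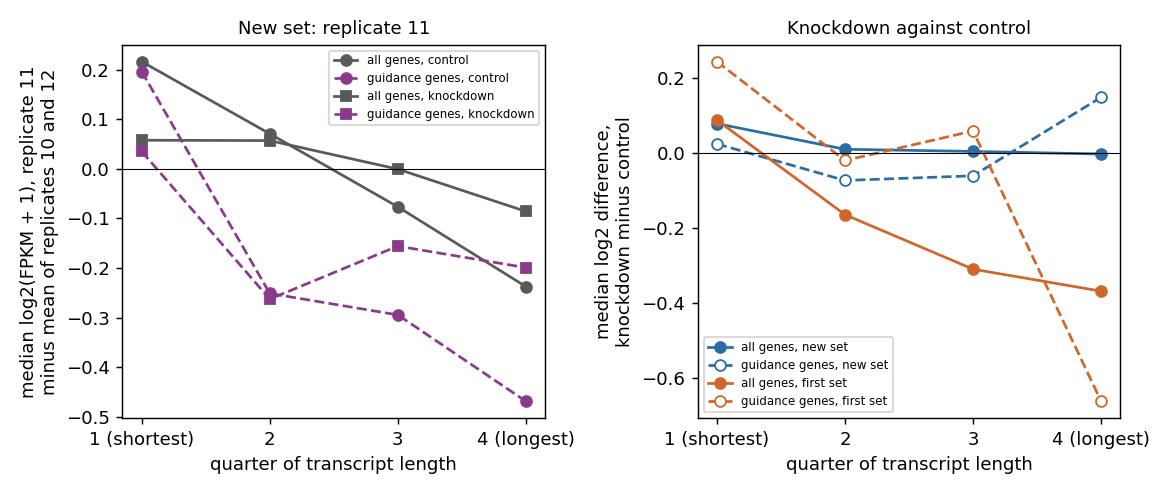
Left: median log2(FPKM + 1) of new-set replicate 11 minus the mean of replicates 10 and 12, by bin of transcript length (4 bins of about equal size), for all genes (grey) and guidance genes (purple, dashed). Right: median log2 difference, knockdown minus control, by length bins set separately for each set (dashed: guidance genes). Control 11 goes from 0.22 to -0.24 over all genes from shortest to longest; the first-set difference goes from 0.09 to -0.37, and only 2 to 4 guidance genes fall in each of the shorter 2 bins.

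Among receptors, Nrp1, the neuropilin that pairs with class A plexins to receive Sema3a, was lower in both sets. It measured 64.4, 58.3 and 57.8 FPKM in new-set controls and 41.1, 44.2 and 51.8 FPKM in knockdowns. The first-set values were 110.1 and 83.1 FPKM in controls and 54.4 and 55.7 FPKM in knockdowns. Every knockdown library lay below every control of its set. The log2 difference was -0.39 in the new set (SE 0.102, limma adjusted p = 0.0514, and 0.0404 with the block) and -0.79 in the first (SE 0.218, limma adjusted p = 0.0401). A fit over all 10 libraries, testing the mean of both sets' differences, gave -0.59 (SE 0.104, limma adjusted p = 0.00263), and that call held in all 17 alternatives. The difference between sets, 0.39, was not called (SE 0.207, limma adjusted p = 0.166).

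That joint fit called 8 of 45 guidance genes, 17.8%, against 29.9% of all genes (9.37% higher and 20.5% lower). Efnb3, Nrp2, Sema3f and Unc5a were higher, and Epha4, Ephb4, Nrp1 and Sema5a lower. This split depended on the setting: 1 of 10 called genes was higher without new-set control 11, 2 of 7 with the olfactory receptor subtraction and 9 of 14 without the filter on low values. The median log2 value was -0.14 over the guidance genes and -0.11 over all. Only Nrp1 and Ephb4 had groups that stood apart in the same direction in both sets, 2 of 45 (4.44%), against 1210 of 10827 genes over all (11.2%). With the replicate block the count was 13 (28.9%, against 34.1% of all genes), adding Dcc, Efna2, Efnb2, Epha5 and Plxna2 below control. This block, and that of the test between sets, also used the first-set numbers, which did not pair the libraries by the rule used.

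Ephb4, an ephrin-B receptor best known from veins, was low throughout. It measured 5.48, 3.96 and 4.72 FPKM in new-set controls and 3.75, 2.48 and 2.61 FPKM in knockdowns, and 1.10 and 1.43 against 0.741 and 0.865 FPKM in the first set. The mean over sets was -0.43 (SE 0.133, limma adjusted p = 0.0303), a call lost without new-set control 10, control 12, knockdown 11 or knockdown 12 or first-set knockdown 1 (adjusted p up to 0.0738). Endothelial and pericyte markers summed to 3.36 to 3.59 FPKM in new-set controls and 1.71 to 3.78 FPKM in knockdowns. First-set sums were 12.2 to 19.0 FPKM in controls and 12.8 to 18.4 FPKM in knockdowns, and their part was not tested.

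Nrp2, the neuropilin that receives Sema3f, went another way from Nrp1. New-set values overlapped, at 3.10, 1.98 and 3.17 FPKM in controls and 2.597, 2.22 and 3.00 FPKM in knockdowns. First-set values were 1.14 and 1.29 FPKM in controls and 3.83 and 2.45 FPKM in knockdowns. The log2 difference was -0.04 in the new set (limma adjusted p = 0.879) and 0.88 in the first (0.0512), and the sets differed by -0.93 (SE 0.292, limma adjusted p = 0.0311). The mean over sets, 0.42 (SE 0.146, limma adjusted p = 0.049), lost its call in 11 of 16 alternatives, among them the olfactory receptor subtraction (0.14) and every left-out library but first-set knockdown 2 (up to 0.163). The difference between sets was lost with that subtraction too (0.095), and without new-set control 10 or 12, knockdown 10 or 11, or first-set control 1, control 2 or knockdown 1 (up to 0.103).

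Sema3f, the secreted ligand of Nrp2, measured 8.97, 6.44 and 7.16 FPKM in new-set controls and 8.63, 11.4 and 9.33 FPKM in knockdowns, with overlap. First-set values were 0.722 and 1.43 FPKM in controls and 2.29 and 3.03 FPKM in knockdowns. Neither set alone passed (limma adjusted p = 0.162 and 0.0672). The mean over sets was 0.59 (SE 0.145, limma adjusted p = 0.0121), and 0.45 (0.0397) with the olfactory receptor subtraction. It kept its call in all 16 alternatives that could test it.

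**Figure D4:**
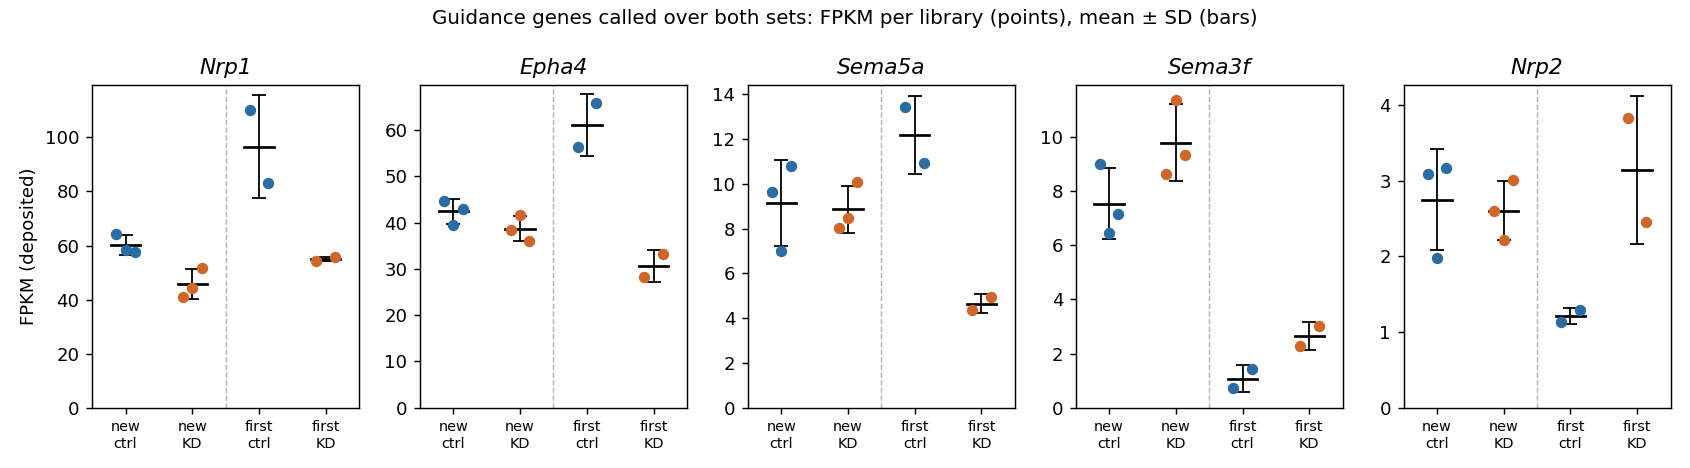
FPKM in each library (points; blue control, orange knockdown) with the mean and SD (bars) for 5 of the 8 guidance genes called over both sets, new set left and first set right of the dashed line. Nrp1 knockdowns lie below controls in both sets; Epha4 and Sema5a groups overlap in the new set and not in the first, with new-set means of 42.4 against 38.7 and 9.14 against 8.86 FPKM.

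Among the other semaphorins, Sema5a, a membrane semaphorin that binds plexins, overlapped in the new set, at 9.63, 7.01 and 10.8 FPKM in controls and 8.03, 8.48 and 10.1 FPKM in knockdowns. First-set values were 13.4 and 10.9 FPKM against 4.37 and 4.94 FPKM, a log2 difference of -1.22 (SE 0.251, limma adjusted p = 0.0156). The mean over sets was -0.62 (SE 0.132, limma adjusted p = 0.00621), but the sets differed by 1.19 (SE 0.265, limma adjusted p = 0.00699). Sema6d, another membrane semaphorin, was higher in the new set (37.1, 23.1 and 37.2 against 44.7, 37.8 and 50.1 FPKM) and lower in the first (25.4 and 20.5 against 15.7 and 14.6 FPKM), with no overlap in either. Neither difference passed without the block, and the sets differed by 1.02 (SE 0.291, limma adjusted p = 0.021; 0.0738 without first-set control 1). Sema3a, the classical repellent that acts through Nrp1, measured 11.5, 9.09 and 10.8 against 11.1, 9.80 and 12.6 FPKM in the new set. Its first-set values were 19.4 and 9.87 against 4.11 and 7.69 FPKM, and the sets differed by 1.25 (SE 0.386, limma adjusted p = 0.0297), a call lost with the replicate block (0.063) and without new-set control 11, knockdown 10 or knockdown 12, or first-set control 1 or knockdown 1. Sema4a, at 2.55, 2.08 and 2.15 against 2.29, 1.70 and 2.01 FPKM in the new set and 1.60 and 0.643 against 2.33 and 2.58 FPKM in the first, differed between sets by -0.86 (SE 0.285, limma adjusted p = 0.0385). This call was lost with the olfactory receptor subtraction (0.149) and without any 1 of the new-set libraries, first-set control 2 or either first-set knockdown.

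Sema6c showed no call in the new set, at 33.1, 19.7 and 32.9 FPKM in controls and 31.8, 27.2 and 32.9 FPKM in knockdowns. Over the family, 0 of 13 membrane semaphorins tested in the new set were called by limma (2 at an unadjusted p under 0.05), but with the replicate block Sema5b, Sema6a and Sema6d were called, and 1 of 11, Sema5a, in the first.

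Of the 8 plexins tested in each set, 1 was called in each, Plxna4 higher in the new set and Plxna2 lower in the first (12.5%, against 8.99% and 23.8% of all genes). Plxna2 fell in the first set, from 62.7 and 50.6 FPKM to 20.5 and 28.8 FPKM (log2 difference -1.18, SE 0.247, limma adjusted p = 0.0166). Plxna2, which partners neuropilins and also binds class 6 semaphorins, overlapped in the new set at 46.9, 27.1 and 47.3 against 49.3, 41.1 and 57.7 FPKM, where control 11 was the lowest. The sets differed by 1.49 (SE 0.345, limma adjusted p = 0.00824). Plxnb2, a receptor for class 4 semaphorins, overlapped in both sets (32.0, 15.6 and 31.7 against 27.0, 19.3 and 26.3 FPKM, and 11.9 and 13.7 against 8.07 and 12.5 FPKM).

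The Slit receptors Robo1 and Robo2 had differences of opposite sign in the 2 sets. Robo1 measured 20.5, 11.2 and 20.3 FPKM in new-set controls and 22.3, 23.6 and 27.7 FPKM in knockdowns, a log2 difference of 0.52 that did not pass (limma adjusted p = 0.149). First-set levels fell from 29.9 and 33.8 FPKM to 17.3 and 17.4 FPKM (log2 difference -0.84, SE 0.212, limma adjusted p = 0.03). The sets differed by 1.36 for Robo1 (SE 0.312, limma adjusted p = 0.00804) and by 0.93 for Robo2 (SE 0.29, limma adjusted p = 0.0302). The Robo2 call was lost without new-set knockdown 11 or 12, or first-set control 1 or knockdown 1 (up to 0.113). Robo2 values were 35.1, 21.4 and 31.2 against 34.4, 35.7 and 41.2 FPKM in the new set and 31.3 and 22.5 against 16.3 and 18.8 FPKM in the first. Slit2, the other Slit above 1 FPKM, overlapped in the new set (1.63, 1.08 and 1.86 against 1.42, 0.87 and 1.49 FPKM).

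All 4 EphA receptors tested in both sets differed between them, each with the new-set difference above the first-set one, as did 22.5% of all genes. All 4 lay in the bin of longest transcripts, where 27.8% of all genes were so called. The part of length in this was not tested. Epha4, which takes both ephrin classes, fell in the first set from 56.3 and 65.7 FPKM to 28.1 and 33.1 FPKM (log2 difference -0.97, SE 0.213, limma adjusted p = 0.0192). New-set values were 44.7, 39.5 and 43.0 FPKM in controls and 38.3, 41.5 and 36.1 FPKM in knockdowns, with overlap (log2 difference -0.13, limma adjusted p = 0.345). The mean over sets was -0.55 (SE 0.0924, limma adjusted p = 0.00217) and the difference between sets 0.84 (SE 0.185, limma adjusted p = 0.00655), both kept in all 17 alternatives. Epha3 measured 108, 87.8 and 105.3 against 131, 121 and 121.1 FPKM in the new set, with no overlap. First-set values were 87.3 and 45.8 against 17.8 and 35.0 FPKM, and the sets differed by 1.61 (SE 0.393, limma adjusted p = 0.0104). Epha5, with 38.2, 31.2 and 41.9 against 44.7, 37.9 and 46.3 FPKM and 13.9 and 20.6 against 7.46 and 12.4 FPKM, differed between sets by 0.96 (SE 0.311, limma adjusted p = 0.0352). That call was lost without any 1 of 6 libraries: new-set controls 10 and 11, knockdowns 10 and 12, first-set control 2 and knockdown 1 (up to 0.136). Epha7, with 14.9, 12.4 and 13.7 against 15.4, 15.9 and 17.2 FPKM and 21.6 and 16.6 against 8.41 and 13.6 FPKM, differed by 1.002 (SE 0.269, limma adjusted p = 0.0161; 0.0608 without first-set control 1).

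EphB receptors other than Ephb4 gave no call in any comparison. Ephb6, which lacks kinase activity, measured 22.3, 16.7 and 19.3 against 17.4, 17.8 and 22.7 FPKM in the new set and 8.71 and 9.34 against 5.72 and 9.001 FPKM in the first. Ephb2 overlapped likewise (8.53, 5.47 and 9.55 against 8.10, 5.80 and 8.50 FPKM, and 4.23 and 6.67 against 4.98 and 4.31 FPKM).

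The ephrin-B ligands each behaved differently. Efnb2 measured 73.0, 44.8 and 97.4 against 70.1, 55.1 and 80.6 FPKM in the new set, with a wide spread within both groups, and fell in the first set from 84.3 and 86.9 FPKM to 38.6 and 55.6 FPKM (log2 difference -0.87, SE 0.234, limma adjusted p = 0.0368). Efnb3 overlapped in the new set (13.2, 8.62 and 13.95 against 13.5, 9.82 and 14.6 FPKM) and rose in the first from 7.60 and 9.49 FPKM to 16.1 and 15.8 FPKM (log2 difference 0.84, SE 0.238, limma adjusted p = 0.0434). Its mean over sets, 0.46 (SE 0.152, limma adjusted p = 0.0406), was lost without any 1 of 7 of the 10 libraries; it held without new-set control 12 or knockdown 11, or first-set control 2. Efnb1, the highest new-set gene, measured 129.5, 117.1 and 127.8 FPKM in controls and 110, 112.9 and 108 FPKM in knockdowns, apart but not called (log2 difference -0.18, SE 0.0773, limma adjusted p = 0.17). Its first-set values were 15.2 and 17.3 against 17.2 and 19.99 FPKM.

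Without the replicate block, no ephrin-A was called by limma in any comparison; with it Efna2 was called over both sets (-0.27, limma adjusted p = 0.0428). Without it 1 of 5 had an unadjusted p under 0.05 in the first set and 0 of 4 in the new set. Efna2 measured 27.9, 51.8 and 46.8 against 27.4, 41.3 and 40.1 FPKM in the new set. Efna4 measured 18.9, 20.4 and 14.4 against 18.3, 17 and 16.7 FPKM there. Efna5 was the highest ephrin-A in the first set, at 27.6 and 17 FPKM in controls and 10.5 and 13.7 FPKM in knockdowns (log2 difference -0.80, limma adjusted p = 0.0862).

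In the netrin system, Dcc measured 14.98, 9.43 and 19.0 against 12.9, 12.8 and 14.8 FPKM in the new set, with overlap. It fell in the first set from 10.9 and 12.96 FPKM to 5.74 and 6.58 FPKM (log2 difference -0.85, SE 0.246, limma adjusted p = 0.0449). Unc5d, a receptor of migrating cortical neurons, measured 9.55, 5.97 and 9.59 against 7.78, 6.24 and 11.8 FPKM in the new set and 19.3 and 15.6 against 8.57 and 11.1 FPKM in the first. It had no call without the replicate block, and with it a call between sets (0.79, limma adjusted p = 0.0499, against 0.115 without). Unc5a differed from Dcc in that its mean over sets was above 0, at 0.35 (SE 0.119, limma adjusted p = 0.0441), though this was lost in 11 of 16 alternatives, among them the olfactory receptor subtraction, a pseudocount of 0.1 and every left-out library but first-set knockdown 1. Ntn4 hardly varied in the new set (11.5, 10.5 and 11.5 against 10.9, 11.8 and 11.9 FPKM). Ntn3 measured 1.60, 1.67 and 2.12 against 1.70, 1.5 and 2.08 FPKM.

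Between the sets, 14 of 45 guidance genes differed, 31.1%, against 32.5% of all genes (22.5% with the new-set difference the higher and 9.98% the lower). For 12 the new-set difference was the higher, and for Nrp2 and Sema4a the lower. The median was 0.39 over the guidance genes and 0.23 over all. By transcript length, the all-gene median went from 0.04 in the shortest bin to 0.40 in the longest. It was 0.86 over the 25 guidance genes in the longest bin and -0.20 over the 15 in the next longest. The part of length in these differences was not tested. Signs were opposite in the 2 sets for 27 of the 45: 16 higher in the new set and lower in the first (35.6%, against 35.0% of all genes), and 11 the reverse (24.4%, against 16.96%). The call of a difference between sets was kept in all 17 alternatives by Epha3, Epha4, Plxna2, Plxna4, Robo1 and Sema5a. With the replicate block 18 genes were called (40%, against 36.1% of all genes), adding Dcc, Efnb2, Efnb3, Plxna1 and Unc5d and losing Sema3a. That block also used the first-set numbers, which do not pair the libraries.

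Other genes of the pathway were taken from 2 lists. Of guidance partners (coreceptors and alternative ligands), 16 were tested in the new set: 2 rose and 0 fell (5 at an unadjusted p under 0.05 in limma), 12.5% against 8.99% of all genes. Flrt3, an adhesion molecule that binds Unc5 receptors, went from 43.3 ± 4 to 69.5 ± 4.81 FPKM (SD, n = 3; log2 difference 0.67, limma adjusted p = 0.0131), and Chl1, an adhesion molecule that can associate with Nrp1, from 19.4 ± 2.90 to 36.4 ± 10.2 FPKM (0.85, 0.0339). First-set means of both were lower with knockdown, 102.1 ± 45.2 against 82.3 ± 15.8 FPKM for Flrt3 and 33.7 ± 6.87 against 21.0 ± 5.02 FPKM for Chl1. Both differed between sets (limma adjusted p = 0.0459 and 0.00575). In the first set 1 of 15 fell and 0 rose (4 at an unadjusted p under 0.05 in limma), 6.67%, against 23.8% of all genes. Over both sets limma called 0 of 15, with 1 at an unadjusted p under 0.05, against 29.9% of all genes called.

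Of the guidance signalling genes, which act inside the cell, 51 were tested in the new set. In order of p, Dpysl2 (log2 difference 0.41), Srgap1 (0.60), Trim9 (0.61) and Pak2 (0.34) rose, and Nck1 (-0.47) and Abl1 (-0.81) fell, with limma adjusted p between 0.0203 and 0.0484. Srgap1 is a GTPase-activating protein that binds Robo receptors, and Trim9 a ubiquitin ligase that binds Dcc. These are 11.8% of the list, against 8.99% of all genes. First-set means of Srgap1 and Pak2 were lower with knockdown, 8.49 against 6.91 FPKM and 13.9 against 7.84 FPKM. Both differed between sets (limma adjusted p = 0.00956 and 0.0144). Trim9 was higher with knockdown there too (6.64 against 8.70 FPKM), and Abl1 lower (5.93 against 4.09 FPKM). In the first set 1 of 50 rose and 10 fell, 22%, against 23.8% of all genes. Over both sets 3 rose and 16 fell of 49, 38.8%, against 29.9% of all genes. The smallest p-values there were those of Rnd3 (-0.81, limma adjusted p = 0.000348), Dpysl2 (-0.69), Gsk3b (-0.93), Chn2 (-0.60), Nck1 (-0.48) and Rasa1 (-0.61). Means of Rnd3, Chn2 and Nck1 were lower in both sets. Gsk3b and Rasa1 did not fall in the new set, at 25.9 against 27.3 FPKM and 41.0 against 43.1 FPKM. First-set means were 341.7 against 93.1 FPKM and 33.1 against 13.1 FPKM. All of these but Nck1 also differed between sets (limma adjusted p between 9.58e-05 and 0.0465). Dpysl2, a mediator of semaphorin responses, was called in both sets with opposite signs: its means were 62.6 and 83.3 FPKM in new-set controls and knockdowns and 4018 and 1175 FPKM in the first set. The annotation behind each table is not stated, so the level of such a gene may not stand for the same transcripts in both tables, nor may its mean over sets. Nck1, an adaptor that binds Robo and Dcc, averaged 14.6 against 10.3 FPKM and 10.1 against 6.84 FPKM.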

How the data were processed

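Sorted cells gave RNA through RNeasy Plus columns, and a low-input kit from Clontech gave the libraries, per the labels' protocols. Named in the submitters' processing notes are TopHat2, Bowtie, Cufflinks 2.0.0, Cuffdiff and the mouse build mm9; for the annotation and any use of strand nothing is stated in those sources. The deposited values are FPKM per gene, computed by the authors in 2 separate tables, so the depth of a library is known only relative to others and tests compare libraries within a table or their differences.

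From these values, log2(FPKM + 1) was tested with limma 3.58.1 in R 4.3.3 (intensity trend, two-sided, Benjamini-Hochberg over all genes whose mean over the table reached 1 FPKM, called at an adjusted p under 0.05), with 4, 2 and 6 residual degrees of freedom in the new, first and joint fits. A log2 difference on this scale understates the change of low genes. Scripts were tested on simulated data. Same-numbered new-set libraries deviated together (correlations 0.122, 0.242 and 0.193), so their numbers were taken to pair them; the first-set correlation was -0.0285.

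Members and lists were chosen with earlier results of these data known. Values per library are given for each guidance gene called in any comparison and for the 2 highest of each family; of the other lists, up to 6 called genes in the new set and over both sets, by p. The printed promoters, the motifs, the length and replicate 11 summaries and the genes drawn were chosen after values were seen, and pseudogenes were dropped from the olfactory receptor list then. Alternatives were another scaling, the olfactory receptor subtraction, another pseudocount, no filter, a filter of 5 FPKM, no trend, a replicate block and each library left out. Transcript lengths were from GENCODE, matched by symbol for 84.8% to 87.7% of genes tested.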

Additional observations from a re-analysis of the deposited data

Results flagged for a closer look

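The 14 results singled out are the guidance genes whose knockdown difference was not equal in the 2 sets by the test of that difference in limma; the shRNA, the set and the table cannot be told apart in it. The new-set minus first-set value was positive for Sema3c (1.89), Epha3 (1.61), Plxna2 (1.49), Plxna4 (1.43), Robo1 (1.36), Sema3a (1.25), Sema5a (1.19), Sema6d (1.02), Epha7 (1.002), Epha5 (0.96), Robo2 (0.93) and Epha4 (0.84). It was negative for Nrp2 (-0.93) and Sema4a (-0.86). These are 31.1% of the 45 guidance genes tested in both sets, against 32.5% of all genes. By role they are 9 of 24 receptors (37.5%) and 5 of 21 ligands (23.8%), and the difference between the roles was not tested.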

How the results depend on the processing

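No called guidance gene reversed its direction under any alternative that could test it. Without the filter on low values the counts of guidance genes called were 2 in the new set, 4 in the first and 14 over both, against 4, 8 and 8; over all genes the new-set count was 470, against 1015, and the joint count 5917, against 3238. At 5 FPKM or more, the joint count was 4, and the first-set count over all genes 1602, against 2971. With the replicate block the counts were 10 in the new set and 13 over both, and the new-set count over all genes was 2452. In the first set, whose numbers do not pair the libraries, the block gave 6, losing Dcc (adjusted p = 0.053) and Efnb3 (0.056); between sets it gave 18 and lost Sema3a. The block ended no other call. Over both sets and between sets it also used the first-set numbers. Leaving out 1 library gave 1 to 6 calls in the new set, 0 to 4 in the first, 4 to 14 over both and 9 to 18 between sets; over all genes these were 88 to 1883, 713 to 1247, 2378 to 4153 and 2546 to 4005. The share of all called genes that were higher in the first set was 55.2%, and 84.4% without the filter or 31.3% at 5 FPKM or more. The causes of these shifts were not tested. Rescaling, another pseudocount and no trend left all 4 counts of guidance genes within 1.5 times, as did the olfactory receptor subtraction. Depth is known only in relative terms, so low first-set values could not be given counting intervals.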
